A study of Mus musculus with 6 samples.

Results

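The cytochrome P450 genes of families 1 to 4 were compared between livers of mice given an antibody against PD-1 and livers of mice given an isotype control antibody. Members were all genes whose symbol is Cyp followed by a family number from 1 to 4, a subfamily letter and a gene number. Symbols marked as pseudogenes (-ps, 5 genes) were left out. This rule took 64 of the 21512 genes in the table, in 19 subfamilies. It reads symbols only and no measured value, but was set with earlier results of these data known. All 6 mice were C57BL/6J, were fed a high-fat diet (HFD) and received carbon tetrachloride (CCl4) over 12 weeks. This combination models fatty liver inflammation with scarring (metabolic dysfunction-associated steatohepatitis, MASH). The control group (n = 3) received isotype control antibody and the other group (n = 3) anti-PD-1 every 3 days over the same period; the latter are called treated livers below. PD-1 is an inhibitory receptor of activated T cells. There was no group without the diet or without CCl4, and the labels used here give neither sex nor age. For 2 of the treated mice (replicates 2 and 3) the label on treatment carries a different number after "PD", but all 3 titles name PD-1, and the titles were followed.

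P450 enzymes of these families sit in the endoplasmic reticulum, where a heme iron activates oxygen with electrons passed on by the reductase Por. They oxidise drugs, environmental chemicals, steroids, bile acids and fatty acids, and in the liver most are made by hepatocytes, many of them mainly around the central vein. Their transcription is set by ligand-activated receptors (AHR, CAR, PXR and PPARalpha), by hepatocyte factors and, for some members, by the sex-specific pattern of growth hormone release. Carbon tetrachloride itself is turned into its toxic radical mainly by Cyp2e1.

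RNA came from whole liver, so a lower value can come from fewer cells of a type or from less RNA per cell, and these cannot be told apart. Values are the authors' normalised counts, which are CPM of a library rescaled by its TMM factor (a correction for composition). Depth was 15528364 to 20779319 reads per library, and 3 reads correspond to a value of 0.144 to 0.2. The hepatocyte markers were present: 7 of the 8 listed were in the table, all above 0 in every library, with a summed value of 67677 to 91241 in the controls and 67133 to 83063 after anti-PD-1. Anti-PD-1 replicate 1 stood apart in markers of other cells. Its 5 macrophage markers summed to 1032 against 224 to 321 in the other 5 libraries, and its 3 erythroid markers to 724 against 195 to 378. The macrophage markers differed among themselves. In all treated livers, 1 of the 5 lay above all controls and 1 below (log2 fold change of the latter -0.61). The 5 T cell markers differed between the whole groups: they summed to 2.43, 2.16 and 1.76 in control livers and to 27.4, 5.13 and 5.69 in treated livers, again highest in that library. Both tested T cell markers, Cd3e and Cd8a, lay above all controls and were called by DESeq2 (adjusted p = 0.0213 and 0.000885) but not by limma (adjusted p = 0.391 and 0.275). None of these markers was at 0 in all libraries, and the part of these cells in the results on P450 genes was not tested. For some members that were highest or lowest in this library, the value without the library is also given.

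The P450 genes of families 1 to 4 together held 1.36 to 1.54% of the reads of a library. Their summed value was 13488, 14781 and 14319 in the 3 control libraries and 13431, 15568 and 15515 in the 3 treated ones, each in order of replicate number as in all such series below. The groups overlapped (14196 ± 655 and 14838 ± 1219, SD, n = 3 each; exact permutation test, two-sided p = 0.6, where 3 against 3 cannot give less than 0.1). Cyp2e1 alone took 25.8% of the members' reads on average over the 6 libraries, and Cyp3a11 14.8%. With Cyp2f2 at 6.02% and Cyp4a10 at 5.27%, 4 genes made up 51.9% of the total. Per kilobase of transcript, the control level of Cyp2e1 was 1891 ± 696 (n = 3) and that of Cyp3a11 1025 ± 219.6 (n = 3). Cyp2f2 (433 ± 73.4), Cyp2d26 (354 ± 34.1), Cyp4a10 (333 ± 66.4) and Cyp4a14 (310.3 ± 24.8) came next. Cyp2d26, Cyp4a10 and Cyp4a14 were each closer to the next in this order than their SDs, while Cyp2f2 stood further above Cyp2d26 than either SD.

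**Figure D1:**
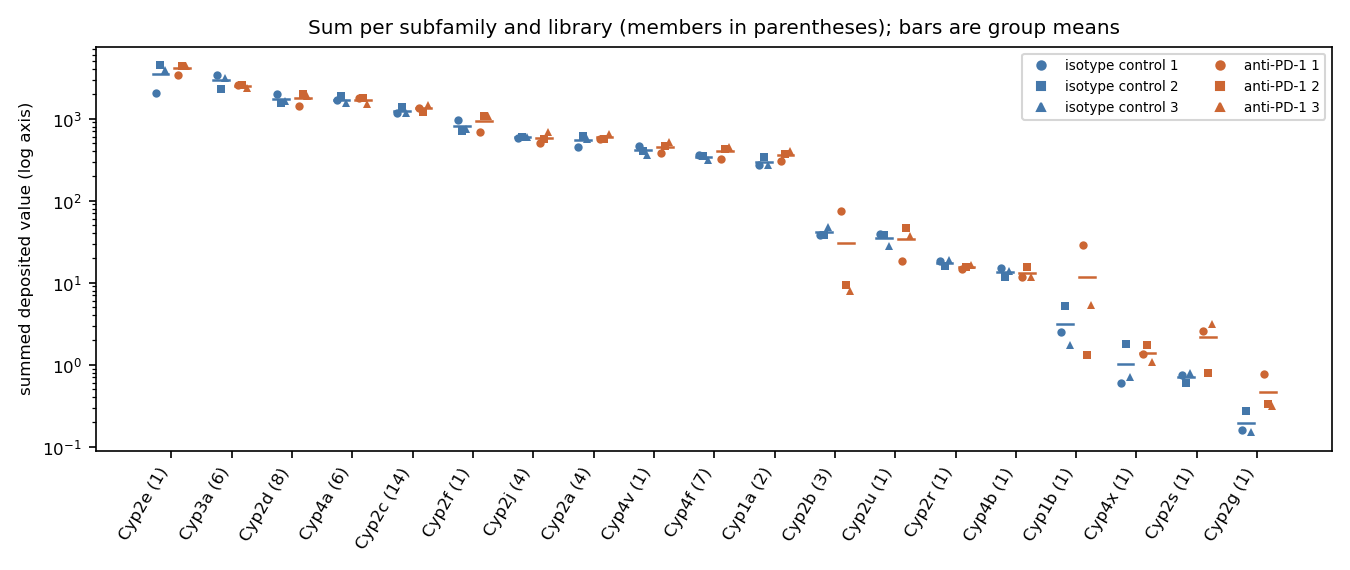
Summed deposited value of each P450 subfamily (log axis) in the 3 isotype control libraries (blue) and the 3 anti-PD-1 libraries (orange). Symbols mark the replicate number, bars the group mean, and the number of genes summed stands in parentheses. Only in Cyp2g, a single gene near the detection limit, did the groups not overlap.

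Of the 64 members, 53 had a value of at least 1 in at least 3 libraries and were tested. No tested member reached that level through a single group. The 11 untested genes (Cyp1a1, Cyp2b13, Cyp2c65, Cyp2c69, Cyp2d11, Cyp2d34, Cyp2g1, Cyp2j8, Cyp2s1, Cyp3a41a and Cyp4f39) never exceeded 3.16, and 4 of them were at 0 reads in some library. No member passed the adjusted threshold of 0.05 in limma (0 of 53, against 0.00715% of the 13990 genes tested) or in edgeR's quasi-likelihood test, nor in limma with the replicate number as a block (0.286% of all genes). At an unadjusted limma p under 0.05, 5 members were higher after anti-PD-1 (Cyp2b10, Cyp2c54, Cyp3a25, Cyp3a59 and Cyp4f15) and 5 were lower (Cyp2a4, Cyp2c38, Cyp2c40, Cyp2c67 and Cyp4a14). That is 18.9% of the tested members, beside 11.3% of all genes tested, of which 5.04% were higher and 6.24% lower; these shares are also the background for the counts of gene groups further on. The groups did not overlap in 7 of 53 members (13.2%, against 17.1% of all genes): 3 lay above the controls (against 7.13%) and 4 below (against 9.98%). The fold change was above 0 for 34 of 53 members, against 50.5% of all genes, and the median log2 fold change was 0.09, against 0.003. DESeq2 on reads recovered from the values called 3 members: Cyp2b10 higher, Cyp2c38 and Cyp2c67 lower (1.87% of all genes).

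Spread between mice of the same group was wide for some members. The median within-group SD on the log2 scale was 0.31 for the 53 tested members (range 0.11 to 1.76) and 0.20 for all genes tested. Cyp2b9 (1.76), Cyp1b1 (1.5), Cyp4a12a (1.21), Cyp2a5 (1.01) and Cyp2a4 (0.99) varied most. Without anti-PD-1 replicate 1, limma called 1 member, Cyp2b9 (0.214% of all genes), and 20 of 53 members had an unadjusted p under 0.05 (37.7%, against 15.1% of all genes), 12 higher and 8 lower. Without both libraries numbered 1, a setting added after the data were seen, 4 members were called, all lower (Cyp2a4, Cyp2a22, Cyp2b9 and Cyp2c38; 7.55%, against 0.951% of all genes).

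**Figure D2:**
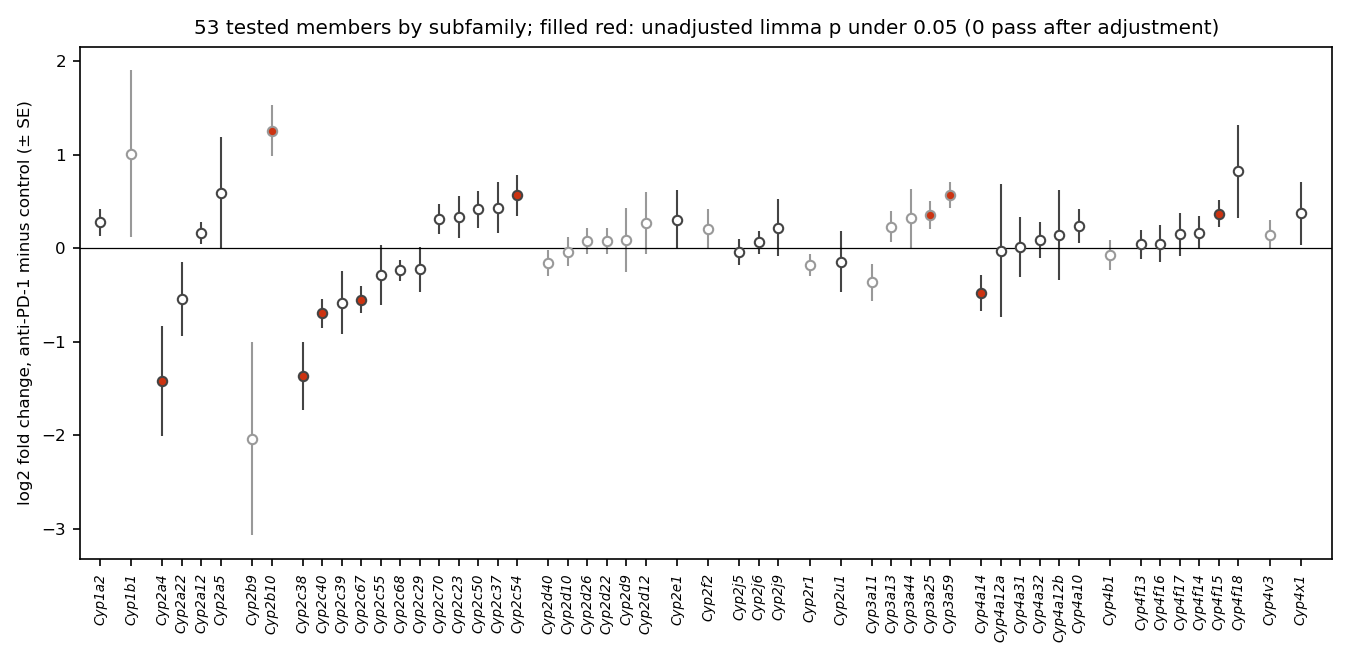
Log2 fold change (anti-PD-1 minus control, limma on log2(value + 0.5), bars ± SE, n = 3 per group) of the 53 tested members, ordered by subfamily with alternating shades of grey. Filled red points have an unadjusted p under 0.05: 5 lie above 0 and 5 below, and 0 passed after adjustment.

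Cyp1a1 and Cyp1a2 are the classical targets of the dioxin receptor AHR. Cyp1a2, which is constitutive in pericentral hepatocytes and oxidises caffeine and arylamines, was at 271, 339.9 and 274 in control livers and 302, 372 and 401 in treated livers. The groups overlapped, and the difference did not pass (log2 fold change 0.28 ± 0.15, SE; limma adjusted p = 0.524). Cyp1a1, which hepatocytes make mainly after AHR activation, stayed low in all mice, at 0.701, 1.35 and 0.754 in control livers and 0.865, 0.799 and 0.621 in treated livers. Cyp1b1, which oxidises oestrogens and polycyclic hydrocarbons and is found mostly outside hepatocytes, was at 2.48, 5.25 and 1.76 in control livers and 28.9, 1.33 and 5.38 in treated livers. Its high value came from the library with the highest macrophage, T cell and erythroid marker sums. The listed markers of stellate cells also summed highest there, at 271 against 145 to 229 elsewhere, and their part was not tested. The log2 fold change of 1.01 ± 0.89 (limma adjusted p = 0.702) turned to -0.0439 without that library.

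The Cyp2a genes include a pair of near-identical enzymes with different substrates: Cyp2a5, the coumarin hydroxylase, and Cyp2a4, a testosterone hydroxylase with higher expression in female liver. Their longest coding transcripts are 98.2% identical, with identical stretches of up to 216 bases, so reads can be split between them uncertainly. The Cyp2b pair shows the same contrast between an inducible and a female-biased gene: Cyp2b10 is the classical phenobarbital-induced target of CAR, and Cyp2b9 is made mainly in female liver. Their transcripts are 86.6% identical, with a longest shared stretch of 55 bases. Below are the 120 bases before the start of each of these 4 genes (RefSeq, GRCm38.p6, plus strand, 5′ to 3′), shown because in each pair the female-biased copy had log2 fold changes below 0 and its relative above 0. Capitals mark TATAAA, the core of the TATA box.
Cyp2a4, chr7:26307072-26307191: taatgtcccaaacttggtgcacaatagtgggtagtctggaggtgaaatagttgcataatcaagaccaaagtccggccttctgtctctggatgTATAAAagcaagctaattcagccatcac
Cyp2a5, chr7:26835219-26835338: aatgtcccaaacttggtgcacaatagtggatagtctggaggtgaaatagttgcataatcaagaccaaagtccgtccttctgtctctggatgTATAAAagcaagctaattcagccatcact
Cyp2b9, chr7:26173289-26173408: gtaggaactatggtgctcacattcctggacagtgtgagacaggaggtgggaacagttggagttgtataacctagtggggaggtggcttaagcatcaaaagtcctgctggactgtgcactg
Cyp2b10, chr7:25897538-25897657: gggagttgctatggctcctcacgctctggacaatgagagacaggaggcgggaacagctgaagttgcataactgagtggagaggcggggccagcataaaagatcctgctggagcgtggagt

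Over the 250 bases before the start, Cyp2a4 and Cyp2a5 were 97.6% identical (245 of 251 aligned positions), and Cyp2b9 and Cyp2b10 were 70.0% identical (182 of 260). TATAAA stood at -28 to -23 in Cyp2a4 and at -29 to -24 in Cyp2a5, and no match was found in the Cyp2b pair. RefSeq promoters were matched to 50 of the 64 members, 55 promoters in all. The other 14 members were not searched, among them Cyp2c54 and every Cyp4a gene except Cyp4a32. TATAAA, searched on both strands, was found in 23 of the 55 (41.8%), against 12.4% of 32851 promoters of the same length. TNGCGTG, the core bound by AHR, searched on both strands, was in 1 of 55 (1.82%, Cyp2c68) against 4.1%. The direct repeats DR1, bound by PPARalpha with RXR, and DR4, bound by CAR with RXR, in their consensus spelling on both strands, matched 0 of 55, against 0.067% and 0.0244%. A match is only a run of letters in this window, and these numbers say nothing about binding.

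Cyp2a4 (ENSMUSG00000074254) was at 14.2, 42.5 and 43.7 in control livers and 26.0, 6.72 and 7.14 in treated livers. Anti-PD-1 replicates 2 and 3 lay below every control, while replicate 1 lay above control replicate 1. The means were 33.5 ± 16.7 and 13.3 ± 11 (SD, n = 3), with a log2 fold change of -1.42 ± 0.59 (limma unadjusted p = 0.0425, adjusted p = 0.423). It was -2.03 without anti-PD-1 replicate 1 (limma adjusted p = 0.122) and -1.94 without control replicate 1 (limma adjusted p = 0.485), and it did not pass with the replicate block either (adjusted p = 0.392). Of the alternatives run, it passed only with both libraries numbered 1 left out (-2.55, limma adjusted p = 0.00235). That setting was added after the data were seen, and it leaves out the lowest control and the highest treated value. Its near copy Cyp2a5 (ENSMUSG00000005547) did not share this pattern: it was at 26.9, 166 and 124 in control livers and 126, 101 and 151 in treated livers, with its low value in control replicate 1. Its log2 fold change was 0.59 ± 0.60 (limma adjusted p = 0.74) and -0.21 without that control. Cyp2a12, a testosterone hydroxylase and the most abundant of the 4 genes, was at 405, 393 and 390.1 in control livers and 394, 452 and 492 in treated livers. Its 96.3% identical neighbour Cyp2a22 was at 5.77, 15.3 and 13.7 in control livers and 11.3, 5.79 and 5.69 in treated livers. Like Cyp2a4, Cyp2a22 was low in control replicate 1 and in anti-PD-1 replicates 2 and 3 (log2 fold change -0.54 ± 0.39, limma adjusted p = 0.638). Leaving out anti-PD-1 replicate 1 gave -0.85 (limma adjusted p = 0.359), and leaving out both libraries numbered 1 gave -1.26 (limma adjusted p = 0.0281).

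Cyp2b9 (ENSMUSG00000040660) was at 35.1, 36.0 and 44.6 in control livers and 66.7, 4.26 and 2.17 in treated livers. Anti-PD-1 replicate 1 was the highest of the 6 libraries and the other two the lowest. The means were 38.6 ± 5.24 and 24.4 ± 36.7 (SD, n = 3), and the log2 fold change of -2.03 ± 1.03 did not pass (limma adjusted p = 0.506). Without anti-PD-1 replicate 1 it was -3.44 (limma adjusted p = 0.0132), and without both libraries numbered 1 it was -3.51 (limma adjusted p = 0.0104). DESeq2 gave no adjusted p for this gene. The related female-biased gene Cyp2b13 was covered by 1, 8 and 9 reads in control livers and by 5, 0 and 0 reads in treated livers, too few to be tested. Cyp2b10 (ENSMUSG00000030483) differed in the other direction, at 3.29, 1.62 and 2.41 in control livers and 8.41, 5.19 and 5.79 in treated livers. All 3 anti-PD-1 libraries lay above all controls (2.44 ± 0.834 and 6.46 ± 1.71, SD, n = 3). The log2 fold change was 1.26 ± 0.27, with the smallest unadjusted limma p of all members (0.00186) and an adjusted p of 0.234. DESeq2 called it (adjusted p = 0.00951), edgeR did not (adjusted p = 0.247).

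**Figure D3:**
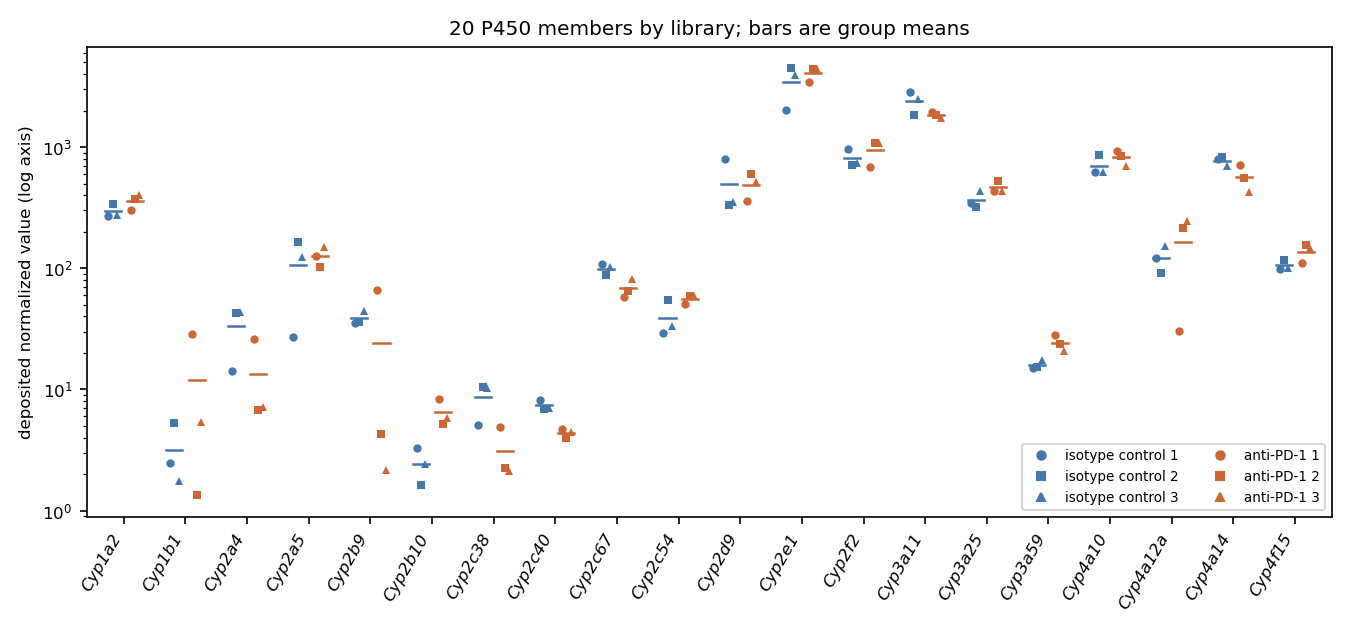
Deposited normalised value (log axis) of 20 P450 genes in each library: isotype control in blue, anti-PD-1 in orange, with symbols for the replicate number and bars for the group mean (n = 3). All anti-PD-1 libraries lie above the controls in Cyp2b10, Cyp3a25 and Cyp3a59, and below them in Cyp2c38, Cyp2c40 and Cyp2c67. In Cyp2b9 the anti-PD-1 libraries range from 2.17 to 66.7 around controls of 35.1 to 44.6.

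The 14 Cyp2c genes hydroxylate steroids, drugs and bile acids and turn arachidonic acid into epoxides. Of the 12 tested, 1 was higher and 3 were lower at an unadjusted limma p under 0.05, and the median log2 fold change was -0.23. The 4 members of the whole set that lay below all controls were all Cyp2c genes: Cyp2c38, Cyp2c40, Cyp2c67 and Cyp2c68. Cyp2c38 (ENSMUSG00000032808) was at 5.13, 10.5 and 10.3 in control livers and 4.90, 2.26 and 2.12 in treated livers (8.63 ± 3.03 and 3.09 ± 1.56, SD, n = 3). Its log2 fold change was -1.36 ± 0.36 (limma unadjusted p = 0.00576, adjusted p = 0.269), and DESeq2 called it (adjusted p = 0.043). In limma it was -1.70 without anti-PD-1 replicate 1 (adjusted p = 0.0959), -1.68 without control replicate 1 (adjusted p = 0.352) and -2.01 without both libraries numbered 1 (adjusted p = 0.0126). Cyp2c39, a retinoic acid hydroxylase whose transcript is 93.6% identical to that of Cyp2c38, was at 1.24, 1.79 and 1.71 in control livers and 1.63, 0.466 and 0.776 in treated livers (log2 fold change -0.58 ± 0.33, limma adjusted p = 0.558).

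Cyp2c40, an arachidonic acid hydroxylase with higher expression in female liver, was at 8.25, 6.93 and 7.04 in control livers and 4.71, 3.99 and 4.45 in treated livers. These 2 narrow groups lay apart (7.41 ± 0.737 and 4.38 ± 0.361, SD, n = 3), with a log2 fold change of -0.69 ± 0.16 (limma unadjusted p = 0.00236, adjusted p = 0.244). Cyp2c67 was at 108, 88.0 and 103 in control livers and 58.5, 65.0 and 81.2 in treated livers, again without overlap. Its estimated log2 fold change was -0.55 ± 0.14 (limma unadjusted p = 0.00524, adjusted p = 0.269; DESeq2 adjusted p = 0.0479). Cyp2c68 was at 133, 109 and 106 in control livers and 94.1, 101 and 98.5 in treated livers (log2 fold change -0.24 ± 0.11, limma adjusted p = 0.476). These 3 genes are near copies: the transcript of Cyp2c40 is 97.6% identical to that of Cyp2c67 and 98.0% identical to that of Cyp2c68. The assignment of reads between them is therefore uncertain, and was not tested.

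The remaining tested Cyp2c genes had log2 fold changes of both signs, with overlapping groups. Cyp2c54, a target of CAR and PXR, was at 29.2, 54.9 and 33.1 in control livers and 50.9, 58.7 and 58.6 in treated livers (log2 fold change 0.57 ± 0.22; limma unadjusted p = 0.0336, adjusted p = 0.403), with control replicate 2 inside the anti-PD-1 range. Its relatives Cyp2c50 and Cyp2c37, 95.9% identical to each other, had log2 fold changes of 0.42 and 0.44. Cyp2c50 was at 129, 218 and 177 in control livers and 269, 202 and 220.3 in treated livers. Cyp2c29, an abundant epoxygenase induced through CAR, was at 245, 389 and 316 in control livers and 343, 195 and 282 in treated livers, a wide overlap (log2 fold change -0.22 ± 0.24). Cyp2c55, chosen after its values were seen, had a log2 fold change of -0.28 ± 0.32 (limma adjusted p = 0.766). It was -0.61 without anti-PD-1 replicate 1, where Cyp2c55 was highest (limma adjusted p = 0.323). Cyp2c70, which makes the muricholic acids that set mouse bile apart from human bile, was at 285, 250.04 and 221 in control livers and 299, 267 and 379.9 in treated livers (log2 fold change 0.31 ± 0.16, limma adjusted p = 0.504). Cyp2c23, an arachidonic acid epoxygenase chosen after its values were seen, was at 205, 211 and 155 in control livers and 167, 279 and 286 in treated livers.

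Among the 8 Cyp2d genes, 6 were tested, with log2 fold changes from -0.15 to 0.27 and a median of 0.08. Cyp2d9, the testosterone 16-alpha hydroxylase with higher expression in male liver, was at 791, 334 and 352 in control livers and 359, 602 and 513 in treated livers. Control replicate 1 was the highest and the groups overlapped (log2 fold change 0.08 ± 0.34, limma adjusted p = 0.947). Cyp2d26, the most abundant of the subfamily, was at 544, 602 and 660.4 in control livers and 549, 688 and 675 in treated livers. Cyp2d10 was at 497, 452 and 451 in control livers and 362, 499.7 and 519.7 in treated livers, so that anti-PD-1 replicate 1 was the lowest of the 6 (log2 fold change -0.04 ± 0.16, and 0.13 without it).

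Cyp2e1 (ENSMUSG00000025479), the ethanol-, acetaminophen- and CCl4-oxidising enzyme, was at 2031, 4468 and 3902 in control livers and 3429, 4435 and 4415 in treated livers. The low value was that of control replicate 1, where Cyp2e1 took 15.1% of the P450 reads against 25.5 to 30.2% in the other 5 libraries. The log2 fold change was 0.31 ± 0.32 (limma adjusted p = 0.748) and -0.0389 without that control. In the same library Cyp3a11 took the largest share of the 6, at 21.2%. Cyp2f2, the naphthalene-oxidising enzyme of periportal hepatocytes, was at 965, 717 and 741 in control livers and 682, 1077 and 1078 in treated livers, with overlapping groups (log2 fold change 0.21 ± 0.22, limma adjusted p = 0.748). Its lowest value was in anti-PD-1 replicate 1, and the log2 fold change was 0.43 without that library (limma adjusted p = 0.282). The 8 pericentral members summed to 5601, 7508 and 7369 in control livers and 6522, 7221 and 7286 in treated livers. At an unadjusted limma p under 0.05, 1 of the 8 was higher and 0 lower (all genes: 5.04% and 6.24%), and their median log2 fold change was 0.36. The lowest sum was that of control replicate 1, and without that library the median was 0.03, with 0 higher and 0 lower.

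The smaller Cyp2 subfamilies held epoxygenases and enzymes of single substrates. Cyp2j5, an arachidonic acid epoxygenase, was at 476, 516 and 511 in control livers and 425, 471 and 574 in treated livers (log2 fold change -0.04 ± 0.14). Cyp2r1, the vitamin D 25-hydroxylase, was at 18.2, 15.8 and 18.8 in control livers and 14.5, 15.5 and 16.3 in treated livers (log2 fold change -0.18 ± 0.12, limma adjusted p = 0.617). Cyp2u1, a hydroxylase of long-chain fatty acids, was at 39.8, 38.5 and 28.2 in control livers and 18.2, 47.0 and 37.3 in treated livers (log2 fold change -0.14 ± 0.32, and 0.25 without anti-PD-1 replicate 1). The untested Cyp2s1, chosen after its values were seen, was at 0.755, 0.595 and 0.804 in control livers and 2.59, 0.799 and 3.16 in treated livers. Its values in anti-PD-1 replicates 1 and 3 were the highest among the untested members.

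Cyp3a enzymes are the main oxidisers of drugs and are induced through PXR. Cyp3a11 (ENSMUSG00000056035), the most abundant of them, was at 2854, 1842 and 2510 in control livers and 1964, 1826 and 1727 in treated livers. Control replicate 2 lay within the anti-PD-1 range (2402 ± 515 and 1839 ± 119, SD, n = 3; log2 fold change -0.36 ± 0.20, limma adjusted p = 0.541). Cyp3a25 (ENSMUSG00000029630) was at 346, 322 and 434 in control livers and 436, 529 and 438 in treated livers. The groups did not overlap, but their nearest values, 434 and 436, almost touched (log2 fold change 0.35 ± 0.15; limma unadjusted p = 0.0445, adjusted p = 0.43). Cyp3a59 (ENSMUSG00000061292) was at 15.1, 15.4 and 17.5 in control livers and 28.0, 23.8 and 20.8 in treated livers, a clearer gap (16 ± 1.35 and 24.2 ± 3.6, SD, n = 3). Its estimated log2 fold change was 0.57 ± 0.14 (limma unadjusted p = 0.00367, adjusted p = 0.255; DESeq2 adjusted p = 0.0524). Its transcript is 97.0% identical to that of Cyp3a25, so the assignment of reads between these genes is uncertain as well. Cyp3a13, chosen after its values were seen, was at 165, 146 and 136 in control livers and 136, 196 and 201 in treated livers. Its log2 fold change was 0.23 ± 0.16 (limma adjusted p = 0.63). It was 0.41 without anti-PD-1 replicate 1, where Cyp3a13 was lowest (limma adjusted p = 0.177). The summed Cyp3a value followed Cyp3a11, at 2936 ± 546 in the controls and 2509.7 ± 105 after anti-PD-1.

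Cyp4a enzymes hydroxylate fatty acids at the omega end and are classical targets of PPARalpha. Cyp4a14 (ENSMUSG00000028715) was at 795, 824 and 705 in control livers and 718, 552 and 429 in treated livers. Only the highest anti-PD-1 library reached into the control range (774 ± 61.9 and 566 ± 145, SD, n = 3; log2 fold change -0.48 ± 0.19, limma unadjusted p = 0.0375, adjusted p = 0.414). Cyp4a10, the other strongly expressed PPARalpha target, was at 624, 864 and 618 in control livers and 927, 848 and 699 in treated livers (log2 fold change 0.24 ± 0.18, limma adjusted p = 0.644). The remaining PPARalpha targets, Cyp4a31 and Cyp4a32, had log2 fold changes of 0.01 and 0.09. Over the aligned part their transcripts are 96.1% and 97.2% identical to that of Cyp4a10. The assignment of reads between them is uncertain, and was not tested. At an unadjusted limma p under 0.05, 0 of the 4 PPARalpha targets were higher and 1 lower, with a median log2 fold change of 0.05 (-0.08 to 0.17 with 1 library left out). Cyp4a12a, which makes 20-HETE and has higher expression in male liver, was at 122, 91.4 and 152 in control livers and 30.5, 216 and 243 in treated livers. The anti-PD-1 libraries lay on both sides of the controls, and the mean was higher (122 and 163) while the log2 fold change was -0.02 ± 0.71. Without anti-PD-1 replicate 1 it was 0.94 (limma adjusted p = 0.118). Cyp4a12b, with a 98.3% identical transcript, was at 74.0, 75.3 and 35.5 in control livers and 29.6, 109 and 82.1 in treated livers (log2 fold change 0.14 ± 0.49, and 0.69 without anti-PD-1 replicate 1).

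Cyp4f enzymes inactivate leukotriene B4 and start the breakdown of vitamins E and K. All 6 tested Cyp4f genes had a log2 fold change above 0, from 0.04 to 0.82 (median 0.16), and 1 had an unadjusted limma p under 0.05. Without anti-PD-1 replicate 1, Cyp4f16, chosen after its values were seen, was at -0.12, and the others stayed above 0. Cyp4f15 (ENSMUSG00000073424) was at 98.4, 118 and 100.2 in control livers and 111, 154 and 147 in treated livers (log2 fold change 0.37 ± 0.15; limma unadjusted p = 0.0372, adjusted p = 0.414). Control replicate 2 lay above anti-PD-1 replicate 1. Cyp4f18, the leukotriene B4 hydroxylase of myeloid cells, was at 1.46, 0.866 and 0.503 in control livers and 4.66, 0.866 and 1.60 in treated livers. It was highest in the library with the highest macrophage marker sum (log2 fold change 0.82 ± 0.50, limma adjusted p = 0.574). Without that library the log2 fold change was 0.29 (limma adjusted p = 0.781). Cyp4v3, the counterpart of human CYP4V2, a fatty acid hydroxylase, was at 467, 409 and 357 in control livers and 381, 469 and 517 in treated livers (log2 fold change 0.14 ± 0.16).

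Some P450 genes differ between male and female mouse liver because growth hormone is released in pulses in males and more steadily in females. The 4 tested female-biased members (of 6 in the table, from a list of 8) were Cyp2a4, Cyp2b9, Cyp2c40 and Cyp3a44. At an unadjusted limma p under 0.05, 0 were higher and 2 lower, and the median log2 fold change was -1.06. Summed over the 6 in the table, they were at 59.8, 87.4 and 96.7 in control livers and 99.6, 16.4 and 15.9 in treated livers, the highest and the 2 lowest values of the 6 libraries. The 4 male-biased members Cyp2d9, Cyp4a12a, Cyp4a12b and Cyp2u1 summed to 1027, 539.5 and 568 in control livers and 438, 974 and 876 in treated livers. At an unadjusted limma p under 0.05, 0 of the 4 were higher and 0 lower, with a median log2 fold change of 0.03. Leaving out anti-PD-1 replicate 1 gave a median of 0.49, and leaving out anti-PD-1 replicate 2 gave -0.33. Anti-PD-1 replicate 1 thus had the highest female-biased and the lowest male-biased sum, and the other 2 anti-PD-1 libraries the lowest female-biased sums. The highest male-biased sum was that of control replicate 1. Most of the female-biased sum of anti-PD-1 replicate 1 was Cyp2b9 (66.7), while Cyp2c40 (4.71) lay below all controls there. The median deviation of the 4 tested female-biased genes from their control means was -0.00771 in that library (log2 scale). The labels used here do not give the sex of the mice, and its part in these values was not tested.

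**Figure D4:**
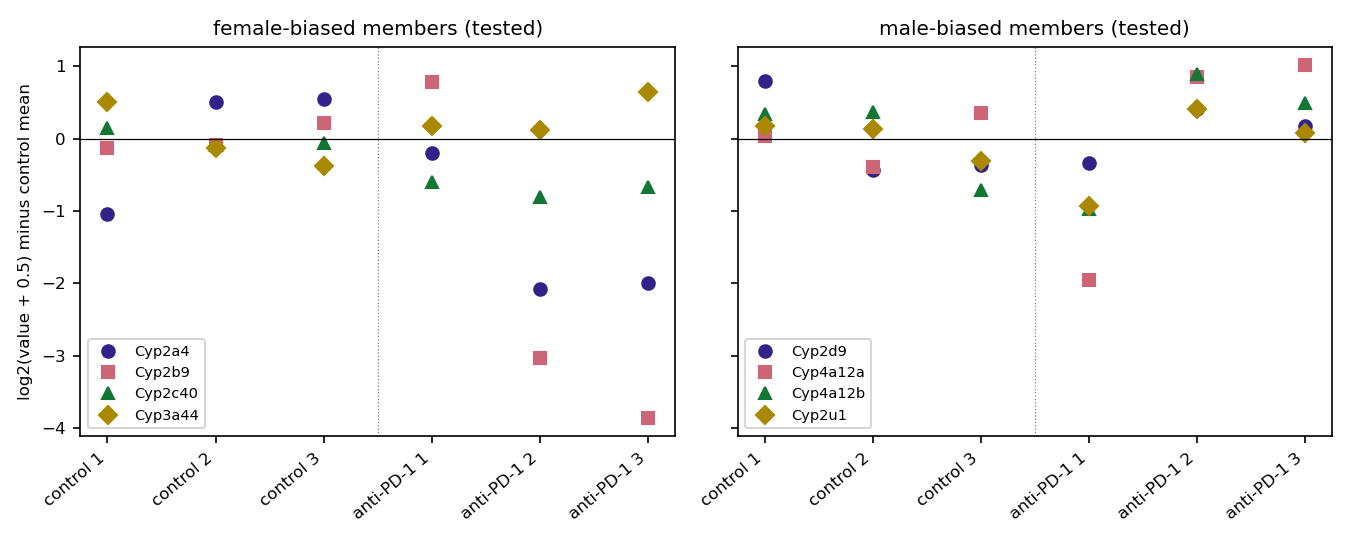
Log2(value + 0.5) of the tested female-biased (left) and male-biased (right) members in each of the 6 libraries, as the difference from the control mean; the dotted line divides the 3 control from the 3 anti-PD-1 libraries. Cyp2a4 and Cyp2b9 are low in anti-PD-1 replicates 2 and 3, and Cyp4a12a is low in anti-PD-1 replicate 1.

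Targets of the xenobiotic receptors had fold changes of both signs. Of the 9 targets of CAR and PXR, all tested, 2 were higher (Cyp2b10 and Cyp2c54) and 0 lower at an unadjusted limma p under 0.05, and 6 had a log2 fold change above 0 (median 0.42). Without control replicate 1 the median was 0.10 and 5 were above 0. Cyp3a11 and Cyp2c29, the most abundant of them, had log2 fold changes below 0. Both genes, with Cyp2a5, Cyp2c37, Cyp2c50 and Cyp2c54, are also among the pericentral members, so the medians of these lists are not independent. CAR itself (Nr1i3), the receptor behind the induction of Cyp2b10, was at 50.4, 64.2 and 47.2 in control livers and 35.5, 31.3 and 26.1 in treated livers. The groups lay apart in the direction opposite to Cyp2b10 (53.9 ± 9.03 and 31.0 ± 4.74, SD, n = 3; log2 fold change -0.79 ± 0.16). This did not pass in limma (adjusted p = 0.218) or with the replicate block (adjusted p = 0.0872), and DESeq2 called it (adjusted p = 0.00778). PXR (Nr1i2), chosen after its values were seen, was at 38.7, 45.6 and 47.3 in control livers and 44.6, 66.7 and 61.8 in treated livers (log2 fold change 0.38 ± 0.16, limma adjusted p = 0.446).

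Of the 19 listed regulators of P450 genes, CAR and PXR included, 17 were tested. At an unadjusted limma p under 0.05, 0 were higher and 9 lower (all genes: 5.04% and 6.24%), 8 of the 9 without overlap between the groups. That is 8 of 17 below all controls, against 9.98% of all genes, and the median log2 fold change was -0.30. The list was drawn up with earlier results of these data known, so the share of all genes is not an independent background for it. None of them passed after adjustment in the main limma fit, while DESeq2 called 4 of the 17, against 1.87% of all genes. Foxa3, a forkhead factor that opens liver chromatin, was at 30.6, 28.1 and 33.1 in control livers and 18, 22.4 and 18.4 in treated livers (log2 fold change -0.63 ± 0.13, limma adjusted p = 0.218; DESeq2 adjusted p = 0.00765). Nfe2l2, the oxidative stress factor NRF2, was at 123, 84.5 and 72.5 in control livers and 58.7, 47.3 and 34.7 in treated livers. The log2 fold change was -0.98 ± 0.24 (limma adjusted p = 0.255; DESeq2 adjusted p = 0.0145), and blocking on the replicate number gave a limma adjusted p of 0.0385. Bcl6, a repressor that takes part in the sex bias of liver genes, was chosen after its values were seen. It was at 47.3, 52.8 and 13 in control livers and 8.60, 11.5 and 4.45 in treated livers (log2 fold change -2.00 ± 0.54, limma adjusted p = 0.27). Blocking on the replicate number gave a limma adjusted p of 0.0432.

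Of the 7 tested electron partners, 6 had a log2 fold change below 0 and only Por had one above 0. Por, the reductase that all these enzymes depend on, was named after its values were seen. It was at 112, 346 and 296 in control livers and 344, 560.2 and 532 in treated livers, with its lowest value, like that of Cyp2e1, in control replicate 1. Its log2 fold change was 1.05 ± 0.41 (limma adjusted p = 0.403), 0.55 without control replicate 1 (limma adjusted p = 0.599) and 0.77 without both libraries numbered 1 (limma adjusted p = 0.0489). Cyb5r3, the cytochrome b5 reductase, was at 560.4, 502 and 539 in control livers and 410.3, 417 and 441 in treated livers (log2 fold change -0.34 ± 0.11, limma adjusted p = 0.324; DESeq2 adjusted p = 0.034). Cyb5b and Pgrmc2, a cytochrome b5 and a heme-binding protein, also lay below all controls, with log2 fold changes of -0.30 and -0.31, as did Cyb5r1 (-0.24), chosen after its values were seen. These make 4 of 7 below all controls, against 9.98% of all genes, on a list that was also drawn up with earlier results known. Of the 7 partners tested (8 listed), 1 was higher and 3 were lower at an unadjusted limma p under 0.05 (all genes: 5.04% and 6.24%), with a median log2 fold change of -0.24.

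**Figure D5:**
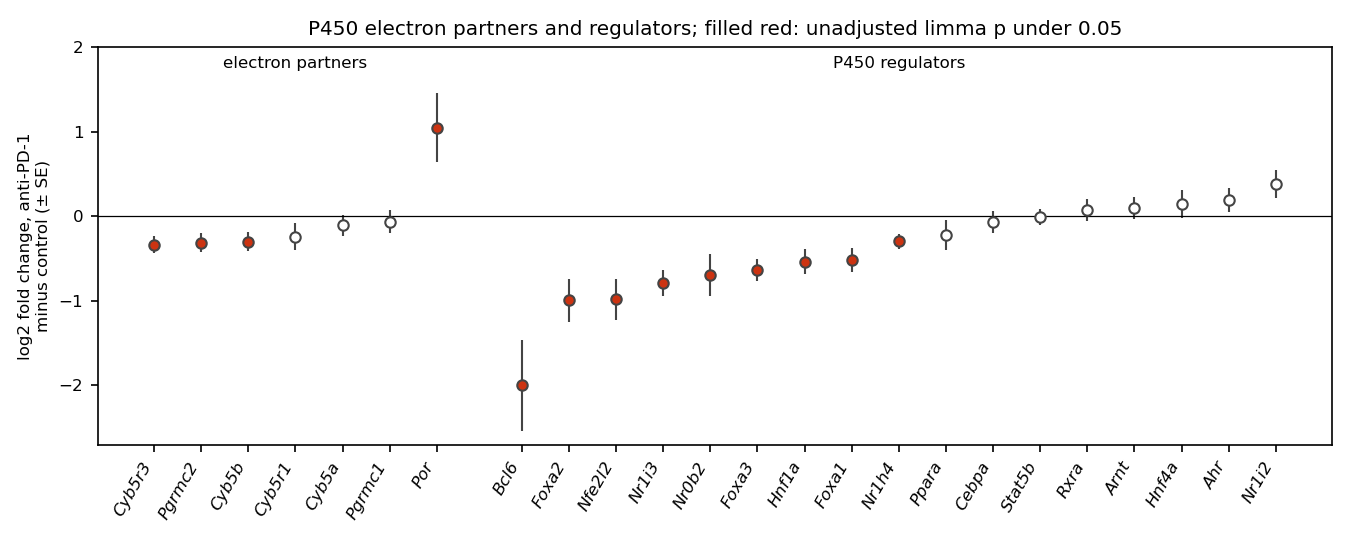
Log2 fold change (anti-PD-1 minus control, limma, bars ± SE, n = 3 per group) of the 7 tested electron partners and the 17 tested regulators of P450 genes. Filled red points have an unadjusted p under 0.05: Por lies above 0, and 3 partners and 9 regulators lie below 0, with 0 past the adjusted threshold.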

How the data were processed

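Whole-liver RNA of 3 control and 3 anti-PD-1 mice was sequenced after ribosomal RNA depletion with a directional kit, per the labels' protocols. GRCm39, Bowtie2, edgeR, RSEM 1.3.0 and Trimmomatic 0.38 are listed in the submitters' processing notes, without their roles. The deposited signal is 1 normalised value per gene and library for 21512 genes. In each library all values (100.0%) divided by that of 1 read gave whole numbers within 0.001, so reads were recovered; whether they are observed or estimated reads is not given in the sources used here. Symbols were matched to 21407 identifiers.

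The comparison used limma 3.58.1 (R 4.3.3) with an intensity trend on log2(value + 0.5), on 13990 genes with at least 1 in at least 3 libraries, two-sided, with Benjamini-Hochberg adjustment over all of them and a threshold of 0.05. Fold changes on this scale understate those of low genes. Limma p-values in the text come from this fit unless a left-out library or the block is named. Alternatives changed the pseudocount, filter, scaling, limma settings, replicate block and libraries, and used edgeR 4.0.16 and DESeq2 1.42.0 on the recovered reads; an adjusted p that DESeq2 left out stayed missing. Leaving out both libraries numbered 1 was added after the data were seen, which holds wherever a value of that setting is given. The scripts were checked on simulated counts. For pairs with the same replicate number, the correlations of the deviations from the group mean were 0.15, 0.13 and 0.25. For pairs with different numbers they were -0.22 to 0.06. The main fit did not pair the mice, so its p-values take no account of such a link. Only the replicate block, run as an alternative, pairs them by number. It does so on the values alone, since the labels name no shared litter or day. The labels do not say more of how mice were housed or processed.

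Members and lists were chosen with earlier results of these data known, so the shares of all genes are not an independent background for their counts. Members named were the 10 with the smallest unadjusted p in each direction, the 10 most abundant and 13 fixed genes; from each list, the 3 genes of lowest unadjusted p. Other named genes are marked as chosen once values were known, except those that complete a list, stand beside a near-identical copy or were untested. Transcript identities (BLAST 2.17.0, longest coding transcript, GENCODE) and promoters (RefSeq, GRCm38.p6) are of an older build than the authors', so no coordinates are given for the measured genes other than those of the promoters.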

Additional observations from a re-analysis of the deposited data

How the results depend on the processing

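Under 18 alternatives, 547 of 574 values of the 32 named and tested members kept direction and side of the threshold, 7 passed it and 20, from 8 members, changed sign. Leaving out 1 library in turn gave log2 fold changes from -0.0439 (without anti-PD-1 replicate 1) to 1.96 for Cyp1b1, from -0.21 (without control replicate 1) to 1.10 for Cyp2a5, and from -0.0389 (without control replicate 1) to 0.53 for Cyp2e1. For Cyp2d10 the range was -0.13 to 0.13, with 0.01 without control replicate 1 and the highest without anti-PD-1 replicate 1. For Cyp2d9 it was -0.13 (without control replicate 2) to 0.49, with -0.0978 without control replicate 3 and -0.0775 with anti-PD-1 replicate 2 left out. For Cyp2j5 it was -0.16 to 0.0553 and for Cyp4a12a -0.55 to 0.94, both highest without anti-PD-1 replicate 1. Cyp4a12a was at 0.15 without control replicate 3. Without both libraries numbered 1 the value was -0.14 for Cyp1b1, -0.22 for Cyp2a5, 0.18 for Cyp2d10, 0.0193 for Cyp2j5 and 0.96 for Cyp4a12a. In edgeR Cyp2d9 was at -0.00305 and Cyp4a12a at 0.42, as in DESeq2 (0.42). Cyp2d26 was at -0.0385 with quantile normalisation.

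Among all genes, 1 was called higher and 0 lower by limma (705 and 873 at an unadjusted p under 0.05). DESeq2 called 151 and 110, and 97 and 36 were called without both libraries numbered 1. Leaving out 1 library gave 0 to 24 higher and 0 to 6 lower. With the replicate block the counts were 27 and 13; the block called no P450 member (smallest adjusted p 0.0622, Cyp2b10) and changed no call beside Nfe2l2 and Bcl6 among the other genes named. Members past the adjusted threshold were 1 higher and 2 lower in DESeq2, 4 lower without both libraries numbered 1, and 0 higher and 0 to 1 lower without 1 library. Members at an unadjusted p under 0.05 were 5 higher and 5 lower. They were 2 and 3 without the trend, 3 and 3 in edgeR, 15 and 9 without both libraries numbered 1, and 2 to 12 and 3 to 8 without 1 library. The median log2 fold change was 0.0146 to 0.25 without 1 library, the highest without anti-PD-1 replicate 1. The cause of these shifts was not tested.

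With 3 mice per group, differences within the spread of these genes were not detectable. Genes near 3 reads (values of 0.144 to 0.2) carry counting error as well.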

Other observations

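P450 genes outside families 1 to 4 make and degrade bile acids, sterols and retinoids. Of the 13 tested, 1 was higher and 1 lower at an unadjusted limma p under 0.05 (all genes: 5.04% and 6.24%), and the median log2 fold change was -0.03. The lower gene was Cyp7a1, the first enzyme of classical bile acid synthesis, at 281, 476 and 263 in control livers and 106, 127 and 127 in treated livers (log2 fold change -1.45 ± 0.22, limma adjusted p = 0.129; DESeq2 adjusted p = 4.91e-07). Cyp7b1, the oxysterol hydroxylase of the alternative pathway and a male-biased gene, was at 34.8, 26.2 and 16.1 in control livers and 23.7, 79.0 and 83.7 in treated livers. The log2 fold change was 1.12 ± 0.49 (limma adjusted p = 0.445), 1.71 without anti-PD-1 replicate 1 (limma adjusted p = 0.0839) and 1.96 without both libraries numbered 1 (limma adjusted p = 0.0223). As in Cyp4a12a, anti-PD-1 replicate 1 was apart from the other two of its group. Cyp26a1, which clears retinoic acid, was at 20.2, 25.4 and 26.9 in control livers and 29.1, 32.6 and 44.3 in treated livers (log2 fold change 0.52 ± 0.18, limma adjusted p = 0.355).

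Of 20 other tested enzymes of the first phase of drug metabolism, 1 was higher and 3 lower at an unadjusted limma p under 0.05 (all genes: 5.04% and 6.24%), 0 passed after adjustment, and the median log2 fold change was -0.08. The groups did not overlap in 6 of the 20, against 17.1% of all genes. Aox1, an aldehyde oxidase, was at 114, 114 and 115 in control livers and 75.2, 96.0 and 78.5 in treated livers (log2 fold change -0.46 ± 0.11, limma adjusted p = 0.255; DESeq2 adjusted p = 0.0375). Ces2a, a carboxylesterase, was at 90.8, 72.2 and 74.1 in control livers and 91.8, 122 and 126 in treated livers (log2 fold change 0.51 ± 0.15, limma adjusted p = 0.303).

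The symbols ending in -ps that the rule left out held 2 tested genes. Cyp2d37-ps was at 18.9, 29.0 and 15.1 in control livers and 10.1, 17.9 and 8.85 in treated livers (log2 fold change -0.76 ± 0.31, limma adjusted p = 0.415). Cyp2d38-ps was at 4.05, 5.90 and 4.98 in control livers and 2.40, 4.19 and 2.07 in treated livers (log2 fold change -0.73 ± 0.27, limma adjusted p = 0.381). Both were lower by more than any tested Cyp2d gene, whose log2 fold changes went no lower than -0.15.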
